A study of Homo sapiens with 32 samples.

Results

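MDA-MB-468 is an established human cell line of triple-negative breast cancer with basal-like features and abundant EGFR. In the study, the cells were seeded in flasks overnight and then received PBS (control), Sal (salinomycin), Das (dasatinib) or both drugs (S + D), and total RNA was sequenced after 24 h or 72 h. The libraries described here are the untreated ones, which received PBS and no drug: 4 control libraries at 24 h and 4 at 72 h, 8 of the 32 libraries of the series. All groups shared RPMI medium with fetal bovine serum, penicillin and streptomycin. The libraries were chosen by their labels, without use of any measured value. The comparison asks how the transcripts of untreated cells changed between 24 h and 72 h of culture, which is the background on which each drug effect at 72 h stands. The labels state 4 biological replicates a condition. In each group, 3 of the libraries carry the numbers 1 to 3 and 1 is unnumbered. The cells are 1 line in 1 culture medium, and no cell count, confluence or medium measurement was used here, so time after seeding, cell density and medium exhaustion cannot be told apart.

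Cells that divide actively transcribe a set of mitotic genes in G2 and M phase under FOXM1, B-MYB and the DREAM complex, and replication genes in S phase under E2F factors. When oxygen falls, HIF factors raise genes for glucose use, pH control and vessel growth. Inflammatory and acute-phase genes respond to NF-kB and STAT3, and ERK feedback genes to the activity of growth factor receptors. These are general properties of the pathways and not results of these data.

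The deposited counts summed to between 32788584 and 42769687 a library at 24 h and between 30852148 and 38613627 at 72 h, so that depth was similar in the groups. Levels are given as CPM, counts scaled to the size of each library after TMM normalization. In RNA of a whole culture, fewer cells of a kind and less RNA per cell cannot be told apart. The label of the line was checked against its markers. EGFR was at 4600 to 4800 CPM at 24 h and 5120 to 5790 at 72 h, and KRT19 at 2420 to 2800 and 2630 to 3190. PGR, the progesterone receptor, had 0 counts in all 8 libraries, where a count of 0 allows up to 3 counts, and ESR2 had at most 5 counts in any library and was not tested. ESR1 was at 3.58 to 6.64 CPM at 24 h and 6.04 to 7.67 at 72 h. ERBB2, also expected to be low, was at 108 to 115 CPM at 24 h and 109 to 143 at 72 h. These levels were above those of CDH3, an expected marker, at 24 h (72.1 to 89.6 CPM), but CPM takes no account of gene length. Per length of exon, ERBB2 was the lower of the 2 at both times. Its mean was 10.9 RPKM against 12.4 for CDH3 at 24 h, and 11.9 against 16.3 at 72 h. Of 7 fibroblast markers, DCN and LUM were at 0 everywhere, and COL1A1 made up nearly all of a summed level of 18.7 to 36.5 CPM at 24 h and 24.2 to 32.4 at 72 h. The 5 leukocyte markers summed to 11.8 to 15.6 CPM at 24 h and 26.1 to 33.6 at 72 h. Nearly all of this was CD14, a co-receptor for lipopolysaccharide, which rose to 2.14 times its 24 h level (log2 fold change 1.10, SE 0.12, edgeR adjusted p = 0.0006), while PTPRC and CD3E had at most 5 counts in any library and 1 of the 5 markers was at 0 in all. The 3 endothelial markers summed to 1.93 to 4.32 CPM and 5.11 to 7.80 CPM. Nearly all of the latter was KDR, a VEGF receptor, which rose by 1.58 on the log2 scale (SE 0.30, edgeR adjusted p = 0.00656). Of the defining markers, CDH5 was at 0.533 to 0.8 CPM at 24 h and 0.156 to 0.556 at 72 h (log2 -1.35, adjusted p = 0.0402, with the block 0.00595), and VWF at 0.123 to 0.215 and 0.0544 to 0.185 CPM. The 2 adipocyte markers ADIPOQ and PLIN1 summed to 1.32 to 1.90 CPM at 24 h and 2.16 to 2.65 at 72 h.

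The unnumbered libraries stood apart from the numbered ones of their group. On the first 2 principal components of log2 CPM, which held 41.1% and 32.7% of the variance, the first separated the times and the second the unnumbered from the numbered libraries. The results rest on all 8 libraries, and the pairing by replicate number rests mostly on the unnumbered pair. A block for the replicate number, which takes up what libraries of the same number share, called more members in most lists, and leaving out 1 library called fewer or more, as given beside each list. These ranges count called members in either direction, and the most calls came without 1 of the unnumbered libraries in most lists.

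Between 24 h and 72 h, 49 genes were higher and 8 lower past both cutoffs of the study (adjusted p below 0.01, log2 fold change beyond 1.5 in either direction), among 15716 genes tested with edgeR's quasi-likelihood test. These are 0.312% and 0.0509% of the genes. The counts include genes that passed the filter on low counts (0.27 CPM) through the group where they were high. FGA and ITGB3 reached that level in 0 libraries at 24 h and 4 at 72 h, and ALPG in 4 and 1. Counts by the adjusted p alone include these genes too. By the adjusted p alone, 598 genes were higher (3.81%) and 428 lower (2.72%). The median log2 fold change of all genes was -0.002. The 4 libraries of one time did not overlap those of the other for 22.5% of all genes. With a replicate block, 80 genes were higher and 16 lower past both cutoffs, and 2599 (16.5%) and 2464 (15.7%) by the adjusted p alone. The calls of each list below stand beside these shares of all genes, 3.81% and 2.72%, or 16.5% and 15.7% with the block. Lists with few calls can lie near them. Without the 24 h unnumbered library the counts past both cutoffs were 102 and 9, and without the 72 h unnumbered library 70 and 32. Leaving out a numbered library gave 24 to 35 higher and 5 to 7 lower genes, the fewest without replicate 2 of 72 h.

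**Figure D1:**
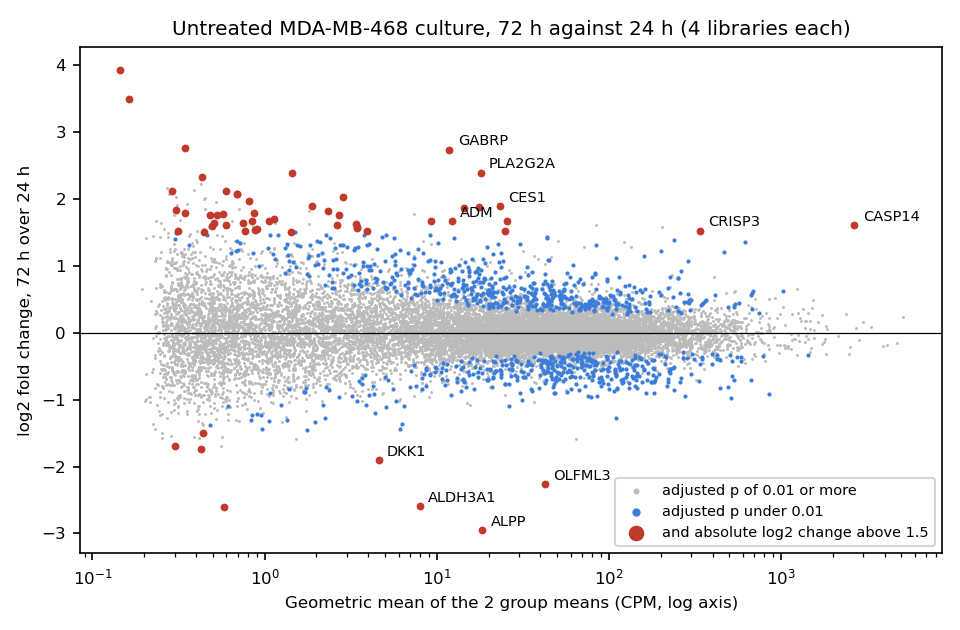
Each point is 1 of 15716 genes, with its mean level over both groups in CPM on a log axis and its log2 fold change at 72 h over 24 h. The 49 higher and 8 lower genes past both cutoffs are red, and CASP14 stands at the far right, at a far higher level than the other red genes.

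Of the genes past both cutoffs, 36 higher and 5 lower ones also had at least 1 CPM in a group and no overlap between the groups. The 5 lower ones come first. ALPP, placental alkaline phosphatase (chromosome 2, 233243434 to 233247599, GRCh37), was at 48.4, 50.7, 52.4 and 53.6 CPM in the 24 h libraries and at 5.01, 4.46, 5.80 and 11.1 CPM in those of 72 h. The highest 72 h value was that of the unnumbered library, and the groups lay far apart. ALPP fell by 2.95 on the log2 scale (SE 0.25, edgeR adjusted p = 0.000274), which makes its 24 h level 7.75 times that of 72 h. Its near-identical neighbour ALPG (chromosome 2, 233271554 to 233275424) fell by 2.61 from a low level of 1.44 ± 0.44 CPM (SD, n = 4), and reads that fit both copies may have been split between them. At 72 h ALPG reached the level of the filter on low counts, 0.27 CPM, in 1 library.

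ALDH3A1, an aldehyde dehydrogenase that the aryl hydrocarbon receptor induces, was at 20.1, 21.3, 21.7 and 15.7 CPM at 24 h and 2.72, 2.59, 2.99 and 4.69 CPM at 72 h. Here the unnumbered library was the lowest at 24 h and the highest at 72 h. The gene fell by 2.59 (SE 0.19, edgeR adjusted p = 0.00018). OLFML3, a secreted olfactomedin-domain protein of the matrix, went from 93.5 ± 3.25 CPM to 19.4 ± 4.35 CPM (SD, n = 4) and fell by 2.27 (SE 0.14, edgeR adjusted p = 8.66e-05). DKK1, a secreted inhibitor of Wnt receptors, was at 9.03, 8.57, 9.23 and 8.77 CPM at 24 h and 2.56, 2.44, 1.69 and 2.81 CPM at 72 h, a fall of 1.91 (SE 0.15, edgeR adjusted p = 0.000215).

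Among the higher genes, GABRP, a subunit of the GABA-A receptor known from basal-like breast tumours (chromosome 5, 170190354 to 170241051), was at 4.47, 5.75, 5.26 and 2.91 CPM at 24 h and 35.9, 37.9, 33.1 and 15.2 CPM at 72 h. The unnumbered library was the lowest at both times. GABRP rose 6.66-fold (log2 2.74, SE 0.30, edgeR adjusted p = 0.00065). PLA2G2A, a secreted phospholipase of the acute phase, was at 9.48, 8.20, 7.85 and 5.93 CPM and then at 37.9, 44.9, 48.1 and 33.9 CPM, 5.25-fold higher (log2 2.39, SE 0.16, edgeR adjusted p = 9.17e-05). CES1, a carboxylesterase that hydrolyses lipid esters and drugs, went from 12.1 ± 0.88 to 45.0 ± 6.997 CPM (SD, n = 4), a rise of 1.90 on the log2 scale with the same adjusted p. KCNJ5, a potassium channel subunit, rose 4.09-fold from 1.41 ± 0.40 CPM, and PTGS1, the constitutive cyclooxygenase, 3.71-fold from 0.97 ± 0.61 CPM (edgeR adjusted p = 0.000581 and 0.00795). For PTGS1 the log2 rise was 1.89, and 2.40 without the unnumbered 24 h library. The serine protease inhibitor SPINK8, the sialyltransferase ST8SIA6, the lectin gene CLEC2B and the zinc finger gene ZNF648 were between 0.15 and 0.62 CPM in the 24 h libraries and between 0.98 and 2.00 CPM in those of 72 h, with log2 rises of 2.08, 2.12, 1.79 and 1.78. At 24 h SPINK8 and ZNF648 reached that filter level in 3 libraries and ST8SIA6 in 2, against 4 at 72 h. A lncRNA known only by its identifier, ENSG00000235091, rose by 1.97 and shares 85.9% of its exon bases with other genes.

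The gene with the highest level past both cutoffs was CASP14, a caspase of keratinocyte cornification (chromosome 19, 15160291 to 15169104), which was singled out after its values were seen. It was at 1216, 1421, 1455 and 2033 CPM at 24 h and 5113, 5101, 4940 and 3468 CPM at 72 h. The unnumbered libraries lay closest to each other, yet without overlap. CASP14 rose 3.04-fold (log2 1.60, SE 0.17, edgeR adjusted p = 0.000582). Per length, its mean level went from 450.2 to 1369 RPKM, where MKI67, for comparison, went from 55.7 to 28.4 RPKM. CRISP3, a secreted cysteine-rich protein also chosen after its values were seen, rose 2.88-fold from 199 ± 32.7 CPM (SD, n = 4).

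**Figure D2:**
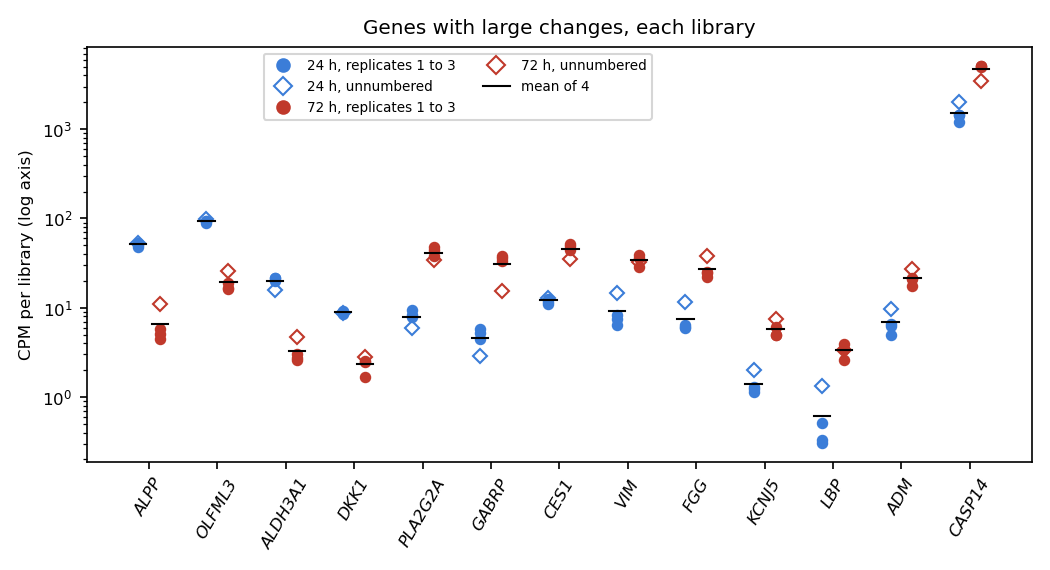
CPM of 13 genes in each library on a log axis, blue at 24 h and red at 72 h, with filled circles for replicates 1 to 3, open diamonds for the unnumbered libraries and bars for the means of 4. ALPP, OLFML3, ALDH3A1 and DKK1 lie lower at 72 h and the other 9 genes higher, without overlap of the groups. For most of these genes the lack of overlap was a condition of the choice.

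Mitotic genes were lower at 72 h. Of the 27 genes of the mitosis list, 25 fell and 0 rose, against 2.72% of all genes that fell and 3.81% that rose. The median log2 fold change of the list was -0.68, against -0.002 over all genes, and its members lay between -0.97 and -0.43. For 26 of the 27 genes the groups did not overlap. These calls use the adjusted p alone, and 0 members of the mitosis, replication and S-phase lists passed both cutoffs. MKI67, the Ki-67 proliferation marker (chromosome 10, 129894923 to 129924687), was at 791, 776, 789 and 504 CPM at 24 h and 383, 342, 401 and 333 CPM at 72 h. It fell by 0.97 on the log2 scale (SE 0.14, edgeR adjusted p = 0.00198). The unnumbered 24 h library was the lowest of its group and still above every 72 h library.

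UBE2C, the ubiquitin-conjugating enzyme of the anaphase-promoting complex, was at 166, 153, 158 and 146 CPM at 24 h and 93.6, 90.5, 91.9 and 98.9 CPM at 72 h. It fell by 0.73 (SE 0.07, edgeR adjusted p = 0.000275), and the spread within each group was small. The kinesin KIF2C fell by 0.70 with the same adjusted p. CDC20, which activates that complex, fell by 0.94, and the mitotic kinases PLK1, AURKA and AURKB by 0.90, 0.83 and 0.66. FOXM1, a transcription factor of mitotic genes, fell by 0.74 and CCNB1, cyclin B1, by 0.73. The members not called were NUSAP1, a microtubule-binding protein that shares 86.8% of its exon bases with another gene, at -0.52 (edgeR adjusted p = 0.0297, with the block 3.06e-06) and the checkpoint kinase BUB1B at -0.43 (adjusted p = 0.0127, with the block 3.51e-05). With the replicate block all 27 were called lower. Leaving out 1 library gave between 13 (without replicate 2 of 72 h) and 27 lower calls, and in a fit of all 32 libraries, whose spread includes the drug-treated cultures, 1 member, AURKA, was called (adjusted p = 0.0016).

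The promoters of these genes were read from RefSeq (GRCh38.p14), in windows of 250 bases before to 50 after the start of transcription. Of the 27 genes, 21 had a window. The letters TTTGAA, the core of the cell cycle homology region through which the DREAM complex acts, stood on either strand in 15 of 21 windows (71.4%), against 9.73% of the windows of the genes tested and 15.4% of all 27305 windows. CCAAT, the core that NF-Y binds, stood in 17 of 21 (81%), against 36.4% of the genes tested and 35.7% of all windows. These are matches of letters, and binding was not measured. The 250 upstream bases are given for the 2 called members with the smallest adjusted p that hold both motifs there, PRC1 at chr15:90994536-90994785 and TOP2A at chr17:40417897-40418146, both on the minus strand, 5′ to 3′ along the gene, with the motifs in capitals on either strand.
PRC1: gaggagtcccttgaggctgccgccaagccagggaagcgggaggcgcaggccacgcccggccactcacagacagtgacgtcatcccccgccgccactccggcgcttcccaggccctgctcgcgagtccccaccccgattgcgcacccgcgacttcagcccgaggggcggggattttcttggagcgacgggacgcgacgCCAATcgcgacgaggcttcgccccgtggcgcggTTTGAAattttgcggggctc
TOP2A: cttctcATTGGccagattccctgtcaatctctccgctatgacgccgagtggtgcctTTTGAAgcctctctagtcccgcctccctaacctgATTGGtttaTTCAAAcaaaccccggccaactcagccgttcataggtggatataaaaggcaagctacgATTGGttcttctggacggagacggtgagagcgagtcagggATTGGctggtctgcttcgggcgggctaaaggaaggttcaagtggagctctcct
PRC1, which bundles the microtubules of the central spindle, holds CCAAT 53 bases before its start and TTTGAA 20 bases before. PRC1 shares 61.9% of its exon bases with other genes. It went from 209 ± 13.5 to 137 ± 2.2 CPM (SD, n = 4) and fell by 0.61 (SE 0.07, edgeR adjusted p = 0.000589). TOP2A, the topoisomerase that separates replicated DNA, holds 4 CCAAT motifs and 2 TTTGAA motifs, and fell by 0.64 (SE 0.07, edgeR adjusted p = 0.000677).

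Genes of DNA replication moved the same way with smaller changes. Of 31 genes, 12 fell and 0 rose, with a median log2 fold change of -0.35. RRM2, the small subunit of ribonucleotide reductase, was at 708, 673, 666 and 542 CPM at 24 h and 404, 368, 359 and 349 CPM at 72 h, a fall of 0.81 (SE 0.09, edgeR adjusted p = 0.000796). Thymidylate synthase TYMS, with 47.9% of its exon bases shared, fell by 0.74, DNA ligase LIG1 by 0.71 and the helicase factor CDC45 by 0.56. PCNA, the sliding clamp, was at -0.25 (adjusted p = 0.0254), thymidine kinase TK1 at -0.72 (adjusted p = 0.018) and the helicase subunit MCM6 at 0.06 (adjusted p = 0.632), none of them called. With the replicate block 26 of the 31 were lower, PCNA and TK1 among them (adjusted p = 0.000357 and 4.1e-07). In the fit of all 32 libraries 1 was lower, and leaving out 1 library gave 4 to 18.

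The genes that control entry into S phase moved less as a group. Of 25 tested, 5 fell and 1 rose, and the median was -0.11. Those that fell were the cyclin CCNA2 at -0.64, the CDK4 and CDK6 inhibitors CDKN2C and CDKN2D at -0.69 and -0.61, and the atypical E2F repressors E2F7 and E2F8 at -0.57 and -0.52. CDKN1C, the inhibitor p57, was at 1.90, 1.64, 2.21 and 2.75 CPM at 24 h and 3.37, 4.46, 4.63 and 4.03 CPM at 72 h, a rise of 0.95 (SE 0.18, edgeR adjusted p = 0.00687). Cyclin D1 (CCND1) was at 0.13 (adjusted p = 0.145), cyclin E2 (CCNE2, 37.1% of exon bases shared) at -0.26 (adjusted p = 0.0807), E2F2 at -0.08, and the inhibitors CDKN1A and CDKN1B at 0.25 and -0.03, none of them called. With the replicate block 9 members were lower and 4 higher, with CCNE2 and CDKN1A among them (adjusted p = 0.00205 and 0.00725), and in the fit of all 32 libraries 0 were called. Leaving out 1 library gave 0 to 7 calls, with 0 without any one of 5 of the 6 numbered libraries.

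Targets of hypoxia were higher at 72 h. Of 30 genes outside glycolysis, 12 rose and 0 fell, against 3.81% and 2.72% of all genes. Of these, 2 passed both cutoffs. The median log2 fold change was 0.85, and all 30 estimates were above 0. ADM, the vasodilator peptide adrenomedullin (chromosome 11, 10326620 to 10328944), was at 4.89, 6.18, 6.52 and 9.79 CPM at 24 h and 17.4, 21.1, 21.6 and 26.9 CPM at 72 h. It rose 3.17-fold (log2 1.66, SE 0.21, edgeR adjusted p = 0.00103), and the unnumbered library was the highest at both times. DDIT4, an inhibitor of mTORC1, was at 112, 134, 139 and 209 CPM and then at 337, 354, 403 and 460 CPM, a rise of 1.39 (SE 0.18, edgeR adjusted p = 0.00133). The angiogenic factor VEGFA rose 1.76-fold from 191 ± 33 CPM (SD, n = 4; log2 0.81, SE 0.12, edgeR adjusted p = 0.00227). ANKRD37, which shares 40.3% of its exon bases with another gene, rose by 1.82, the ephrin EFNA3, with 43.9% shared, by 1.07, the lysyl oxidase LOX by 1.08, and the transcription factors BHLHE40 and MXI1 by 0.92 and 0.88.

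Several well-known members were not called. In CA9, NDRG1, EGLN3 and ANGPTL4 the unnumbered 24 h library was the highest of its group. In CA12, also not called, it was the lowest, at 0.785 CPM against 1.18 to 1.66. CA9, the carbonic anhydrase that is widely used as a hypoxia marker and shares 35.7% of its exon bases, was at 34.8, 53.1, 52.3 and 205 CPM at 24 h and 170, 180, 202 and 290.5 CPM at 72 h. The log2 fold change was 1.29 (SE 0.49), with an edgeR adjusted p of 0.0969, and of 2.42e-05 with the replicate block. Without the unnumbered 24 h library the fold change was 2.17 on the log2 scale. NDRG1, a stress-response gene, was at 52.5, 81.1, 86.0 and 250 CPM and then at 305, 345, 387 and 368 CPM (log2 1.58, and 2.26 without the unnumbered 24 h library, adjusted p = 0.0243, with the block 2.13e-05). The prolyl hydroxylase EGLN3 at 1.35 (adjusted p = 0.0134, with the block 3.67e-06) and ANGPTL4 at 1.32 (adjusted p = 0.096, with the block 4.11e-06) had the same high unnumbered library, and without it ANGPTL4 was at 2.18. In the fit with the block, 26 of the 30 were higher and 0 lower. The fit of all 32 libraries called 8, and leaving out 1 library gave 5 (without replicate 2 or 3 of 24 h or replicate 2 of 72 h) to 24 (without the unnumbered 24 h library).

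The letters ACGTG, the core that HIF factors bind in hypoxia response elements, stood in 15 of 26 promoter windows of these genes (57.7%), against 26.4% of the windows of the genes tested, 21.6% of all windows and 9 of 21 windows of the mitosis list (42.9%). CACGTG, the E-box that other factors bind, contains ACGTG on both strands. Chosen and printed in the same way are ANKRD37 at chr4:185396591-185396840 and DDIT4 at chr10:72273674-72273923, both on the plus strand, with ACGTG in capitals on either strand.
ANKRD37: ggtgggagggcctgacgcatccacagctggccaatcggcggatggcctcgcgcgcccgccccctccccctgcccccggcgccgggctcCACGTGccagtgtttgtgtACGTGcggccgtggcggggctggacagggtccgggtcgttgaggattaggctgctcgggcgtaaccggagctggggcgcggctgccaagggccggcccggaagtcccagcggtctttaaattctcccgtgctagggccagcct
DDIT4: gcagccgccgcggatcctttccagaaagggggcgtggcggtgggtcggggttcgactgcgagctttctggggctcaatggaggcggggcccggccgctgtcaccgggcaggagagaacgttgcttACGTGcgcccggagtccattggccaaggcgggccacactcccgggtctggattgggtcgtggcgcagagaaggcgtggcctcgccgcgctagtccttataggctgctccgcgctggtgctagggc
DDIT4 holds the letters once, 125 bases before its start. In ANKRD37 they stand at 143 bases, and on both strands of an E-box at 161 and 162 bases.

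**Figure D3:**
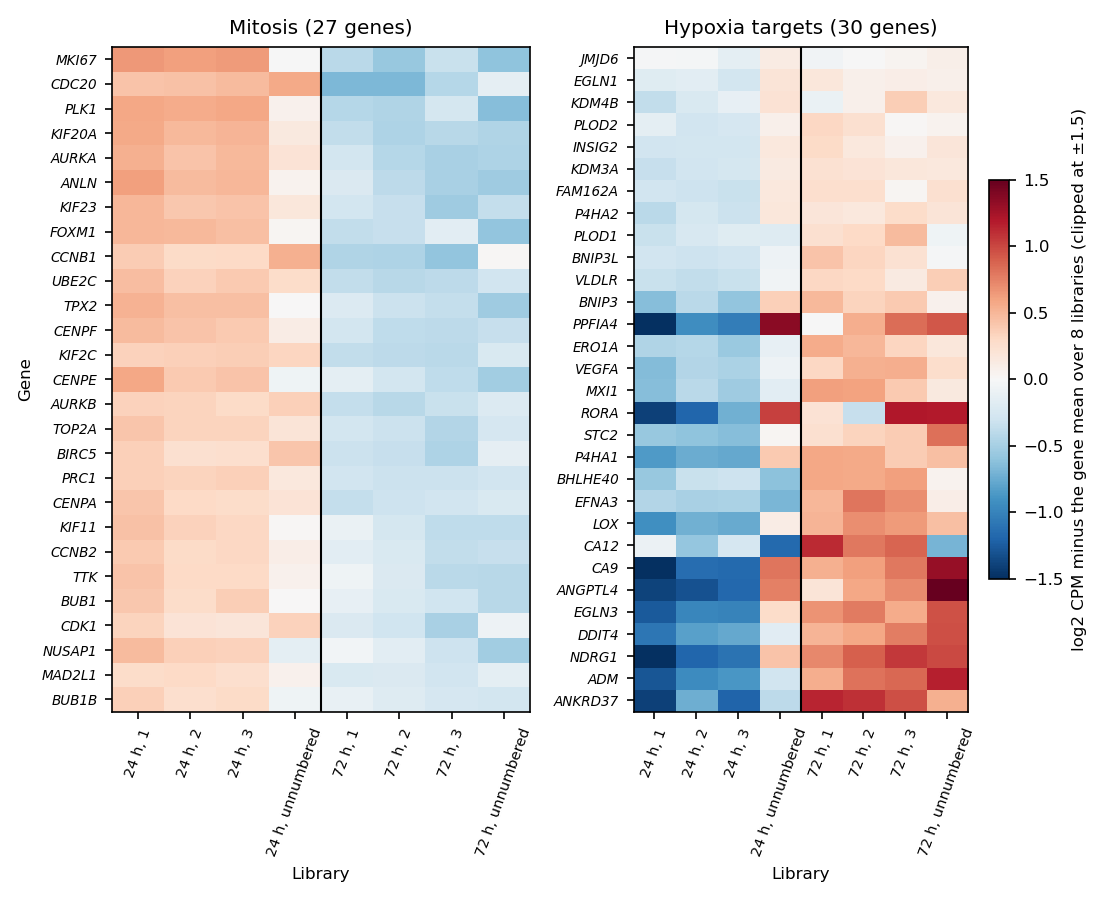
log2 CPM minus the mean of the gene over the 8 libraries, for the 27 mitosis genes and the 30 hypoxia targets, red above and blue below the mean, with libraries in columns. The 3 numbered 24 h libraries are red for mitosis and blue for nearly all hypoxia targets, the 72 h libraries mostly the reverse, and the unnumbered 24 h library lies between them for many genes of both lists.

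Glycolysis genes were higher in part. Of 25 genes, 3 rose and 0 fell: PDK1, which holds pyruvate back from the mitochondria, by 0.89, hexokinase HK2 by 0.69 and PFKFB3, which makes the activator of phosphofructokinase, by 0.65. The median was 0.35. The glucose transporter SLC2A1 was at 0.43 (adjusted p = 0.0668, with the block 3.39e-05), and ALDOC, a low-level aldolase, at -1.21 (adjusted p = 0.0498, with the block 0.00454). A further transporter, SLC2A3, was at 1.81, and at 3.08 without the unnumbered 24 h library (adjusted p = 0.0776 over all 8, with the block 1.35e-05). With the replicate block 16 of the 25 were higher and 1, ALDOC, lower, and in the fit of all 32 libraries 1 was higher. Leaving out 1 library gave 0 (without replicate 2 or 3 of 24 h or replicate 2 of 72 h) to 13 (without the unnumbered 24 h library). GAPDH, used widely as a reference gene, was at 0.08 (adjusted p = 0.464), and ACTB at -0.15 (adjusted p = 0.0814, with the block 0.00466). Of 12 genes of acid and bicarbonate transport, the bicarbonate cotransporter SLC4A7 alone was called, 0.63 higher, while CA12, a further membrane carbonic anhydrase, was at 1.15 (adjusted p = 0.0548, with the block 0.000143). With the block 6 of the 12 were higher and 1 lower, and leaving out 1 library gave 0 to 3.

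Part of the inflammatory genes were higher. In the list of chemokines, cytokines and NF-kB targets, 7 of 28 genes rose, 0 fell and 21 were not called, with a median of 0.53. Complement factor CFB, with 42.8% of its exon bases shared, was at 3.32, 3.49, 3.20 and 5.89 CPM at 24 h and 10.6, 9.69, 8.16 and 9.14 CPM at 72 h, a rise of 1.23 (SE 0.20, edgeR adjusted p = 0.00307). Complement C3 was at 96.0, 103, 106 and 223 CPM and then at 286, 292, 321 and 335 CPM, a rise of 1.22 (SE 0.24, edgeR adjusted p = 0.00864). The chemokine CXCL10 rose by 1.19 from 0.42 to 0.97 CPM, the apoptosis inhibitor BIRC3 by 0.74, the adhesion receptor ICAM1 by 0.69, the cytokine CSF1 by 0.53 and NFKBIA, the feedback inhibitor of NF-kB, by 0.46. With the block 20 of the 28 were higher and 1 lower, and the fit of all 32 libraries called 3 higher. Leaving out 1 library gave 0 (without replicate 2 or 3 of 24 h) to 15 (without the unnumbered 24 h library).

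The fibrinogen genes, which lie within one stretch of chromosome 4 from 155484163 to 155534119, differed in level. FGG was at 6.46, 6.10, 5.88 and 11.6 CPM at 24 h and 25.1, 24.3, 22.3 and 37.7 CPM at 72 h, 3.62-fold higher (log2 1.86, SE 0.25, edgeR adjusted p = 0.00137). FGA had at most 3 counts in any 24 h library and at most 25 at 72 h, with a mean there of 0.565 CPM, at least 6.12-fold higher than 3 counts a library. It passed the filter on low counts through the 72 h group alone, so this is a description, with no test. FGB was at 0.84 ± 0.39 and 1.49 ± 0.56 CPM (SD, n = 4) with overlapping groups and was not called (log2 0.84, adjusted p = 0.192, with the block 0.00483). LBP, which binds lipopolysaccharide, was at 0.33, 0.51, 0.31 and 1.32 CPM and then at 2.59, 3.97, 3.46 and 3.39 CPM, 5.25-fold higher (edgeR adjusted p = 0.00345). Its log2 change was 2.39, and 3.11 without the unnumbered 24 h library. Outside the rule for named genes, 3 more acute-phase proteins were singled out after their values were seen. The protease inhibitor A2M rose by 1.43, the copper carrier CP by 1.42 and the antiprotease SERPINA1 by 1.34, the last at a level of 1.15 ± 0.17 CPM at 72 h.

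Of 16 STAT and SOCS genes, 3 rose and 1 fell. SOCS3, the feedback inhibitor of gp130 receptors, was at 4.24, 5.91, 5.75 and 8.64 CPM at 24 h and 11.3, 13.8, 13.8 and 12.6 CPM at 72 h, a rise of 1.07 (SE 0.19, edgeR adjusted p = 0.00485). The kinase PIM1 rose by 0.88 and the oncostatin M receptor OSMR by 0.55, while SOCS1, the inhibitor of interferon receptors, fell by 0.88 from 2.31 ± 0.31 CPM. STAT3 itself was at 0.04 (adjusted p = 0.683). With the block 5 of the 16 were higher and 1 lower, in the fit of all 32 libraries 0 were called, and leaving out 1 library gave 0 to 3. The interferon list held 3 genes that rose and 0 that fell, of 28, with a median of 0.09. BST2, or tetherin, which holds virions on the cell, was at 7.49, 6.91, 8.40 and 7.90 CPM at 24 h and 20.5, 21.4, 22.8 and 17.4 CPM at 72 h, a rise of 1.42 (SE 0.11, edgeR adjusted p = 0.00018). IFIT2 rose by 0.79 and OAS2 by 0.59, while IFIT1 was at 0.56 (adjusted p = 0.0108, with the block 0.000459) and ISG15 at -0.03 (adjusted p = 0.972). With the block 8 interferon genes were higher and 1 lower, and leaving out 1 library gave 1 to 7. Of 14 genes of MHC class I presentation, 5 rose and 0 fell, with a median of 0.32. Among these, HLA-B, with 45.3% of its exon bases shared, rose by 0.82, HLA-C by 0.57, the light chain B2M by 0.45 and the immunoproteasome subunit PSMB9 by 0.40. Class I genes are near-identical in places, so reads may have been split between them. With the block 10 of the 14 were higher and 1 lower, in the fit of all 32 libraries 1 was higher, and leaving out 1 library gave 1 (without replicate 2 of 24 h) to 6.

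Feedback genes of ERK signalling were higher in part. Of 18, 5 rose and 0 fell, with a median of 0.37: the phosphatases DUSP4 and DUSP6 by 0.71 and 0.72, the ETS factors ETV4 and ETV5 by 0.86 and 0.84, and PHLDA1 by 0.58. ETV4 was at 21.8, 22.4, 23.3 and 32.7 CPM at 24 h and 47.0, 45.4, 49.8 and 40.2 CPM at 72 h (SE of the log2 change 0.13, edgeR adjusted p = 0.00279). With the block 11 were higher and 1 lower, in the fit of all 32 libraries 3 were higher, and leaving out 1 library gave 2 to 8. In the list of EGFR family members and ligands, 2 of 12 rose and both encode inhibitors of the receptors. ERRFI1 was at 93.0, 98.3, 94.1 and 144 CPM at 24 h and 241, 258, 222 and 232 CPM at 72 h, a rise of 1.15 (SE 0.14, edgeR adjusted p = 0.000919), and LRIG1, with 37.9% of its exon bases shared, rose by 0.43. With the block 5 of the 12 were higher, and leaving out 1 library gave 1 to 2. EGFR was at 0.23 (adjusted p = 0.0287, with the block 0.00037) and ERBB2 at 0.12 (adjusted p = 0.357). ESR1 was at 0.43 (adjusted p = 0.12). Of 21 immediate early genes 0 were called by edgeR, 2 by DESeq2 and 6 with the block, all higher, and 6 had an unadjusted p under 0.05. FOS was at 0.42 and EGR1 at 0.16, both with overlapping groups. With the numbered libraries alone they were at 0.957 and 0.578 (edgeR adjusted p = 0.000377 and 0.000994), and 11 of the 21 genes were called higher. In the unnumbered libraries both were lower at 72 h, FOS at 61.7 and then 32.2 CPM, EGR1 at 254.6 and then 84.55 CPM. Leaving out 1 library gave 0 to 3 calls in the list.

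In the MYC network of 13 genes, MYCN rose by 1.19 and MXI1, a repressor partner of MAX, by 0.88, while MXD3, a partner of the same kind that shares 43.7% of its exon bases, fell by 0.83. MYCN was at 4.95, 4.92, 4.80 and 3.35 CPM at 24 h and 9.70, 11.1, 11.2 and 8.98 CPM at 72 h (SE 0.15, edgeR adjusted p = 0.000972). MYC was at 0.16 (adjusted p = 0.393). With the block 3 of the network were higher and 1 lower. Of 23 YAP and TEAD targets, IGFBP3, a binding protein of insulin-like growth factors, was called, 1.20 higher, with 0 to 2 calls with 1 library left out. This 1 call was near the share of all genes that rose, 3.81%. Under the block 3 were higher and 4 lower, near the shares of all genes, 16.5% and 15.7%. The matrix protein THBS1 was at 85.8, 86.8, 89.2 and 182 CPM at 24 h and 30.8, 26.7, 27.6 and 62.7 CPM at 72 h. The unnumbered library was the highest at both times, and the groups did not overlap. The log2 fold change was -1.59 with an edgeR adjusted p of 0.0105, and of 6.93e-10 with the block. CCN2 and CCN1, the classical targets, were at -0.47 (adjusted p = 0.444) and 0.15 (adjusted p = 0.652), both with overlapping groups. With the numbered libraries alone, CCN1 was called higher, at 0.528 (edgeR adjusted p = 4.16e-05). CCN2 was then at 0.222 and not called (adjusted p = 0.109). In the unnumbered libraries both were lower at 72 h, CCN1 at 179.7 and then 102.2 CPM.

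**Figure D4:**
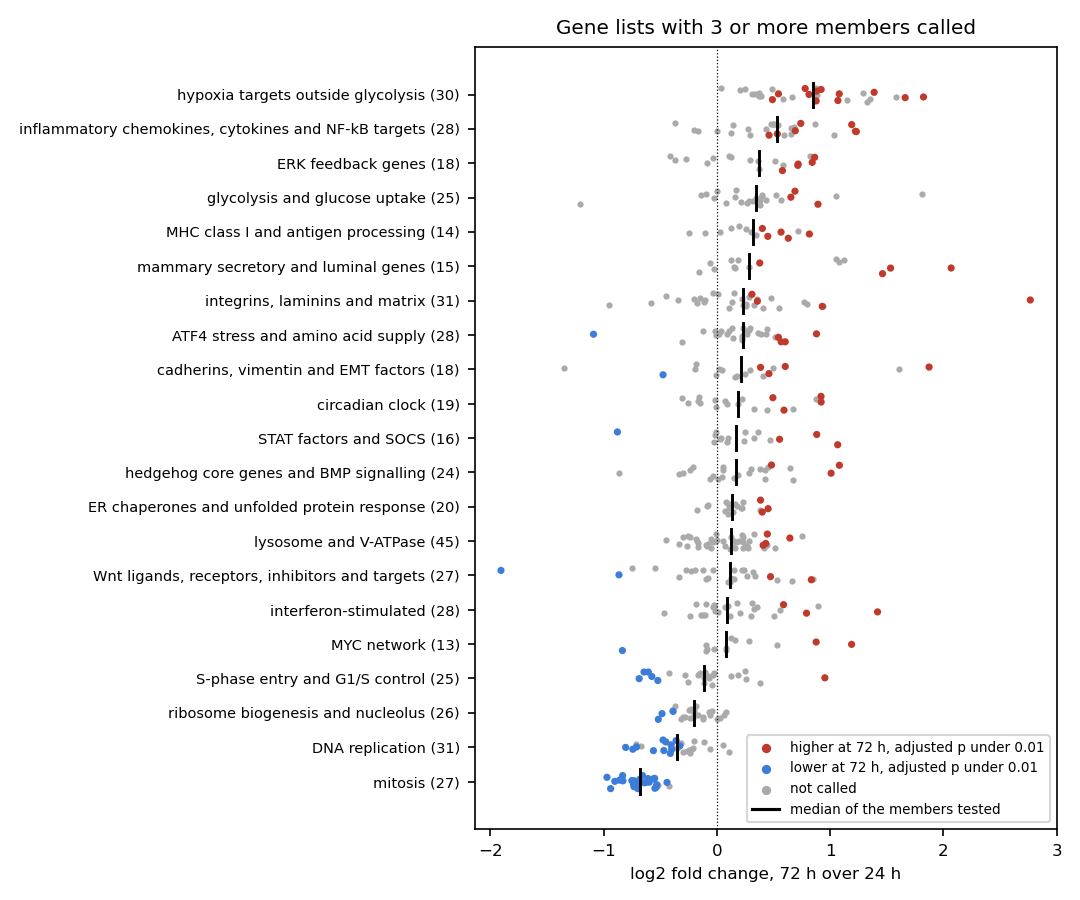
log2 fold change at 72 h over 24 h of every tested member of the 21 gene lists with 3 or more members called, ordered by the median (black bar), with called members in red (higher) or blue (lower) and the others grey. The mitosis list has its members between -0.97 and -0.43, and the hypoxia list, with a median of 0.85, has no member below 0.

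Secreted regulators of Wnt moved in both directions. Of 27 genes of the pathway, 2 rose and 2 fell. Beside DKK1, the R-spondin receptor LGR6 fell by 0.86, while the secreted antagonist SFRP1 rose by 0.83 from 169 ± 21 CPM and the ligand WNT4 by 0.47. With the block 7 were higher and 7 lower, and leaving out 1 library gave 2 to 6. Of 24 hedgehog and BMP genes, 3 rose and 0 fell: ID4, an inhibitor of bHLH factors, by 1.01, the hedgehog co-receptors GAS1 and CDON by 1.08 and 0.48, with 7 higher and 1 lower under the block and 1 to 4 calls with 1 library left out. In the Notch list 1 of 17 was called, the receptor-modifying glycosyltransferase LFNG, which fell by 1.01 from 4.87 ± 0.19 to 2.41 ± 0.20 CPM (SD, n = 4), with 6 higher and 1 lower under the block and 1 to 3 calls with 1 library left out. Of 21 TGF-beta genes, LTBP2, which binds latent matrix complexes, and BHLHE40 rose, by 0.76 and 0.92, with 4 higher under the block and 1 to 3 calls with 1 library left out.

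Genes of mammary secretion were among those with large relative changes at low levels. Of 15 tested, 4 rose and 0 fell, 2 of them past both cutoffs, with a median of 0.28. PIGR, the receptor that carries immunoglobulins into milk, was at 0.24, 0.43, 0.37 and 0.30 CPM at 24 h and 1.77, 1.37, 1.20 and 1.32 CPM at 72 h, 4.19-fold higher (log2 2.07, SE 0.24, edgeR adjusted p = 0.000822). The secreted protein PIP rose by 1.53, ELF5, the transcription factor of milk-producing alveolar cells, by 1.46, and the milk fat globule protein MFGE8 by 0.38. With the block 8 were higher, in the fit of all 32 libraries 3, and leaving out 1 library gave 3 to 6. At 24 h PIGR reached the filter level in 3 libraries, against 4 at 72 h. KRT5, a keratin of basal cells, was at 832, 896, 871 and 803 CPM at 24 h and 500, 527, 561 and 494 CPM at 72 h. It fell by 0.71 (SE 0.07, edgeR adjusted p = 0.000385), and it was the called one of 18 keratins, where KRT18, a luminal keratin, was at -0.01 (adjusted p = 0.977). With the block 3 keratins were higher and 5 lower, and leaving out 1 library gave 1 to 5. Of 17 genes of the cornified envelope, GRHL1, an epithelial transcription factor, rose by 0.37 and 0 fell, with 5 in each direction under the block and 0 to 5 calls with 1 library left out.

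Among 18 genes of cell adhesion and epithelial-mesenchymal state, 4 rose and 1 fell, with a median of 0.21. The mesenchymal intermediate filament VIM, which shares 24.6% of its exon bases, was at 7.52, 8.20, 6.43 and 14.7 CPM at 24 h and 28.4, 36.3, 38.5 and 32.6 CPM at 72 h, 3.66-fold higher (log2 1.87, SE 0.23, edgeR adjusted p = 0.00107). The other called members were the cadherin CDH3, higher by 0.39, the tight junction claudin CLDN1, higher by 0.60, the aldehyde dehydrogenase ALDH1A1, higher by 0.46, and the epithelial splicing factor ESRP2, which fell by 0.48. With the block 9 were higher and 3 lower, and leaving out 1 library gave 1 (without replicate 2 or 3 of 24 h or replicate 2 of 72 h) to 7. CDH1, E-cadherin, was at 0.17 (adjusted p = 0.186, with the block 0.00391), and fibronectin FN1 at 1.60, or 2.25 without the unnumbered 24 h library (adjusted p = 0.026 over all 8, with the block 1.81e-07). Of 31 integrin, laminin and matrix genes, ITGA9 rose by 0.93, ITGB5 by 0.36 and LAMC1 by 0.31, and 0 fell. ITGB3, which pairs with the alpha-v chain and shares 33.2% of its exon bases, was also called but is not counted as a rise. It had at most 5 counts in any 24 h library and at most 40 at 72 h, and passed the filter on low counts through the 72 h group alone, so its level of 0.91 ± 0.21 CPM at 72 h is a description. With the block 15 of the list, ITGB3 among them, were higher and 4 lower, and leaving out 1 library gave 2 to 6.

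Of 22 genes of sterol synthesis and uptake, 2 fell and 0 rose, with a median of -0.26: LSS, which closes the sterol rings, by 0.74 and the mevalonate kinase MVK by 0.67. With the block 6 were lower, and leaving out 1 library gave 0 to 3. The fatty acid synthase FASN was at -0.01 (adjusted p = 0.985). ABCG1, which exports cholesterol, was called among 7 genes of sterol efflux, 1.42 higher, from 3.55, 4.25, 4.15 and 1.92 CPM at 24 h to 9.60, 10.9, 10.1 and 6.23 CPM at 72 h. With the block 4 of the 7 were higher, and leaving out 1 library gave 0 to 1. In the list of the aryl hydrocarbon receptor 1 of 8 was called, ALDH3A1, described above. CYP1A1, its best-known target, was at 41.4, 40.6, 39.9 and 87.7 CPM at 24 h and 18.1, 19.3, 19.2 and 46.2 CPM at 72 h, with the unnumbered library high at both times (log2 -1.03, adjusted p = 0.0728, with the block 3.97e-08). The receptor's repressor AHRR, which shares 58.7% of its exon bases, was at -0.65 (adjusted p = 0.0144, with the block 0.0042), and with the block 4 members were lower and 2 higher. Leaving out 1 library gave 1 to 4.

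Stress and nutrient genes changed in single members. In the ATF4 list 4 of 28 rose and 1 fell: the glycoprotein hormone STC2 by 0.88, the stress protein NUPR1 by 0.60, the proline enzyme PYCR1 by 0.57 and the lipoprotein receptor VLDLR by 0.54 rose, and the factor ATF5 fell by 1.09 from 38.4 ± 7.8 to 18.0 ± 1.2 CPM (SD, n = 4). With the block 16 were higher and 2 lower, and leaving out 1 library gave 1 to 8. ASNS, asparagine synthetase, with 49.3% of its exon bases shared, was at 0.43 (adjusted p = 0.0805, with the block 7.98e-06) and DDIT3, or CHOP, with 39.6% shared, at 0.44 (adjusted p = 0.264, with the block 0.000352). Of 20 ER chaperone genes, the factor XBP1 and its targets HERPUD1 and DNAJB9 rose, by 0.39, 0.40 and 0.45, and 0 fell, with 9 higher under the block and 0 to 3 calls with 1 library left out. Of 45 lysosome genes, the cathepsins CTSL, CTSB and CTSF and the autophagy gene GABARAPL1 rose, by 0.64, 0.45, 0.43 and 0.41, with 17 higher and 9 lower under the block and 0 (without replicate 2 or 3 of 24 h) to 8 calls with 1 library left out. Of 24 genes of quiescence and FOXO control, the insulin receptor INSR rose by 0.55 and YPEL5 by 0.51, with 15 higher under the block and 0 to 8 calls with 1 library left out. Clock genes rose in 4 of 19, among them BHLHE40 by 0.92, NFIL3 by 0.59 and NPAS2 by 0.49, with 8 higher and 2 lower under the block. The iron carrier TF rose by 1.31 among 13 iron genes (5 higher and 1 lower under the block), and the zinc importer SLC39A10 by 0.49 among 10 metal genes (4 higher and 1 lower). With 1 library left out the calls ranged from 0 to 5 and from 0 to 2. Of 26 genes of ribosome biogenesis, 3 fell and 0 rose, UTP20 by 0.52, NOP2 (54.4% of exon bases shared) by 0.48 and RRS1 by 0.39, with 14 lower under the block and 1 to 5 calls with 1 library left out. The chaperone HSPH1 fell by 0.34 among 15 heat shock genes, with 5 lower under the block and 0 to 2 calls with 1 library left out.

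In 9 of the 44 lists with a tested member, edgeR called 0 genes. Beside the immediate early genes, these were p53 targets (22 genes, 8 with an unadjusted p under 0.05, 3 higher and 1 lower by DESeq2), the BCL2 family (15, 1 and 0 by DESeq2), NRF2 targets (24, 8, and 2 in each direction by DESeq2), nuclear subunits of oxidative phosphorylation (33, 2, and 1 by DESeq2), cytosolic tRNA synthetases (13, 8, and 4 higher by DESeq2), fatty acid synthesis (14, 2 and 0), replication-dependent histones (10, 2 and 0) and steroid receptors with their targets (8, 2 and 0). With the block, 9 p53 targets were higher and 3 lower, 8 tRNA synthetases higher, and 5 NRF2 targets higher and 4 lower. The other lists named here had at most 3 calls each. For oxidative phosphorylation the estimates lay between -0.25 and 0.22.

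The change with time was then set beside that of the drug-treated cultures, in 1 fit of all 32 libraries over 17227 genes. Here 344 genes were higher (2.00%) and 131 lower (0.760%) in the control by the adjusted p alone. For Sal at 0.5 µM the numbers were 3443 (20%) and 3769 (21.9%). They were 912 (5.29%) and 706 (4.10%) for Das at 15 µM, and 2841 (16.5%) and 3203 (18.6%) for the combination. The 3 tests of the difference from the control share its 8 libraries. Past both cutoffs, the change differed from that of the control for 432 genes upward and 936 downward in Sal cultures. For Das the numbers were 5 and 11, or 11 and 51 with the replicate block, and for the combination 314 and 648. By the adjusted p alone, 8.21% of the genes differed upward and 13.7% downward in Sal cultures. These shares were 0.0522% and 0.174% for Das, and 6.15% and 10.1% for the combination.

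The mitosis list had a median log2 change of -0.68 in the control. It was -2.62 in Sal, -0.24 in Das and -2.18 in S + D cultures. The difference from the control was called, downward, for 25 of the 27 genes with Sal, 18 with S + D and 0 with Das. MKI67 changed by -0.97 (SE 0.36) in the control, and by -3.66 (SE 0.40), -0.41 (SE 0.36) and -3.24 (SE 0.39) under Sal, Das and the combination. Its difference from the control was -2.69 (SE 0.52, edgeR adjusted p = 0.000217) with Sal and 0.56 (SE 0.51, adjusted p = 0.69) with Das. UBE2C changed by -0.73, -2.59, -0.41 and -1.66 in the same order, and CDC20 by -0.94, -2.82, -0.88 and -2.54. For DNA replication the medians were -0.35, -1.28, -0.51 and -0.90, with 22 differences called downward with Sal, 11 downward and 1 upward with S + D and 0 with Das, and RRM2 changed by -0.81, -3.72, -0.27 and -3.42.

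Hypoxia targets had medians of 0.85 in the control, 0.61 in Sal, 0.69 in Das and 0.57 in S + D cultures. The difference from the control was called downward for 4, 0 and 5 of the 30 genes, against 13.7%, 0.174% and 10.1% of all genes. For Sal the count was near the share of all genes. ADM changed by 1.67, 0.84, 1.51 and 0.97, and VEGFA by 0.81, 0.64, 0.67 and 0.08, none of these with a called difference from the control. DDIT4 changed by 1.39 in the control and -0.45 with S + D, a difference of -1.84 (SE 0.46, edgeR adjusted p = 0.00371). CASP14 changed by 1.61 in the control, and by -0.29, 1.30 and -0.13 under Sal, Das and the combination. The difference was -1.89 (SE 0.40, edgeR adjusted p = 0.000519) with Sal and -0.30 (SE 0.39, adjusted p = 0.806) with Das. VIM changed by 1.88, 1.63, 1.26 and 1.84, and FGG by 1.86, -1.08, 1.04 and -0.19, without a called difference.

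ERK feedback genes had a median of 0.37 in the control and of -0.78, -0.44 and -0.69 in the drug arms in the same order. The difference was called downward for 10, 2 and 8 of the 18. DUSP6 changed by 0.72 in the control, and by -2.10, -1.24 and -2.55 in the drug arms, and the difference from the control was called with Sal and S + D (edgeR adjusted p = 1.09e-05 and 3.7e-05) and not with Das (adjusted p = 0.0246). The inflammatory list had medians of 0.53, -0.95, -0.62 and -0.49, with 12, 1 and 9 of 28 differences called downward and 1 upward with S + D. CXCL10 changed by 1.20, -1.79, -2.37 and -2.79. ER chaperones had medians of 0.13, 1.10, 0.58 and 0.94, with 10, 0 and 6 of 20 differences called upward.

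**Figure D5:**
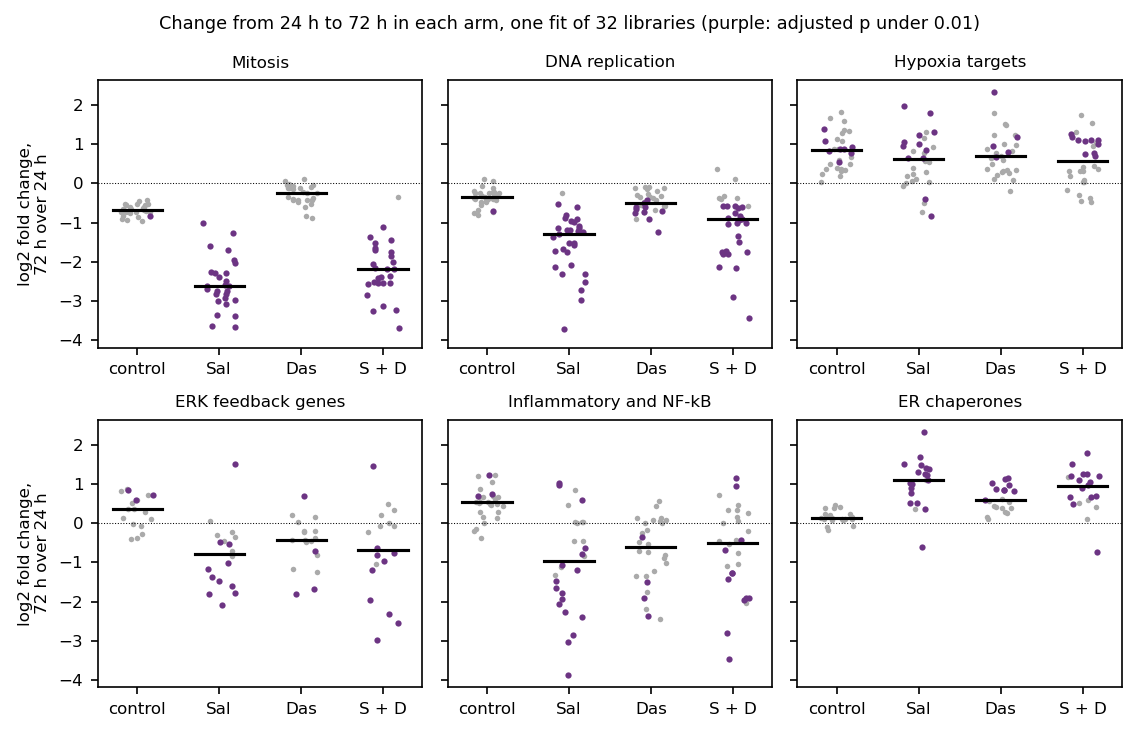
log2 fold change at 72 h over 24 h of the members of 6 gene lists in each arm (control, Sal, Das, S + D), from 1 fit of all 32 libraries, with called members in purple, the others in grey and medians as bars. The mitosis members lie between -0.97 and -0.43 in the control and mostly below -2 in Sal cultures, and the medians of the hypoxia targets lie between 0.57 and 0.85 in all 4 arms.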

How the data were processed

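RNA was taken from untreated MDA-MB-468 cells with the RNeasy kit, and libraries were made with the TruSeq RNA kit and sequenced as short single-end reads. Per the labels, the submitters' processing notes name bcl2fastq 2.19, STAR 2.5.2, Cufflinks 2.1.1 and DESeq2, with the build GRCh37. The authors deposited raw counts of reads per Ensembl gene, 48804 genes in 32 libraries, as whole numbers without normalization. The counting program, its annotation and its use of strand are not given in the sources used here, so reads of overlapping and antisense genes cannot be told apart. Symbols and GRCh37 positions came from GENCODE, which held 46537 of the identifiers. TXNIP and the mitochondrially encoded mRNAs were among 26 list symbols not analysed here, and neither was PECAM1.

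Counts were tested with edgeR 4.0.16 in R 4.3.3 (TMM, filterByExpr with a minimum count of 10, quasi-likelihood test, Benjamini-Hochberg adjustment) in a fit of the 8 libraries with group as the only term. The fit of all 32 libraries was used for the drug arms. The cutoffs of the study, adjusted p under 0.01 and absolute log2 fold change above 1.5, were used together for counts over all genes, and the adjusted p alone, a choice made here, for named genes and list members. CPM used the effective library sizes, errors are SD over 4 libraries or SE of the fit, and RPKM divided CPM by the annotated exon bases. Library totals of 30852148 to 42769687 counts leave counting error mainly to genes of low counts. Within each group, pairs of libraries differed by more than counting noise, so none was counted as a duplicate. The chi-square per degree of freedom was 2.02 to 25.2 for pairs of numbered libraries. For pairs with an unnumbered library it was 56.4 to 71.5. This excess cannot show that the numbered libraries came from independent cultures, and the 4 biological replicates were taken as the labels state them.

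Named genes were the 15 largest rises and 15 largest falls past both cutoffs with at least 1 CPM and no overlap, up to 4 members per list with the smallest adjusted p, genes whose role the text needs, and 34 fixed genes. Some of these are not reported here. Lists and members were chosen with earlier results of these data known. Deviations of libraries with the same number from their group means had correlations of 0.20 to 0.39 for numbers 1 to 3 and 0.70 for the unnumbered pair, above the 0.1 set for pairing, so blocked values are given. Numbered libraries of different numbers had correlations of 0.035 to 0.287. These values therefore do not show that the numbers 1 to 3 mark pairs. Centred within the numbered libraries, the correlations were 0.15, 0.004 and 0.11, so the pairing rests mostly on the unnumbered pair. The labels name no shared batch. The alternatives were DESeq2 1.42.0, RLE factors, no filter, the block, a term for the unnumbered libraries, the numbered libraries alone, all 32 libraries, other cutoffs and each library left out. The procedure was tested on simulated counts. These were drawn without a shift of the unnumbered libraries, so they do not cover that feature of the data. Promoter windows came from RefSeq, and 21 and 26 symbols matched.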

Additional observations from a re-analysis of the deposited data

Results flagged for a closer look

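In 63 of 348 groups of 4 libraries, for the genes named, 1 library lay apart from the other 3: its gap to the nearest of them, divided by the range of the group, was above Dixon's critical value for 4 samples, which chance exceeds in about 1 of 20 groups. In 59 of the 63 it was an unnumbered library. The values given are these gap ratios.

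The unnumbered 24 h library was the high one for 33 genes. The ratios were THBS1 0.965, CYP1A1 0.969, CCN2 0.915, RRS1 0.881, E2F2 0.857, ISG15 0.932, MCM6 0.843, CCN1 0.898, ASNS 0.935, SLC2A1 0.84, VLDLR 0.888 and INSR 0.901. They were OSMR 0.956, PYCR1 0.852, HK2 0.835, BIRC3 0.899, ETV5 0.839, ETV4 0.864, STC2 0.917, PIM1 0.832, LOX 0.861, ERRFI1 0.896, IGFBP3 0.861 and C3 0.919 for the next genes. For the rest they were CFB 0.891, CA9 0.892, ANGPTL4 0.954, EGLN3 0.89, CP 0.929, NDRG1 0.83, FN1 0.912, SLC2A3 0.919 and FGG 0.899. The same library was the low one for 11 genes, with MKI67 0.949, PLK1 0.922, LGR6 0.836, FOXM1 0.879, PRC1 0.853, E2F8 0.857, NUPR1 0.922, SFRP1 0.911, FGB 0.847, ITGA9 0.833 and MYCN 0.908. The unnumbered 72 h library was the high one for 7 genes, with THBS1 0.886, CYP1A1 0.956, KIF2C 0.839, CDKN2D 0.847, E2F7 0.925, INSR 0.855 and PIM1 0.893, and the low one for 8, with CCN1 0.872, CDH1 0.914, CTSL 0.836, DUSP4 0.882, BHLHE40 0.891, GAS1 0.83, CASP14 0.895 and SPINK8 0.839. Replicate 3 was the library apart in the other 4: at 72 h low for HSPH1 (0.952) and ESR1 (0.835) and high for HLA-C (0.838), and at 24 h high for CTSB (0.856). The cause was not tested.

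The change from 24 h to 72 h differed from that of the control, past both cutoffs, for 1368 genes under Sal, 16 under Das and 962 under S + D, in the fit of all 32 libraries. Among the genes described in every arm, the difference in log2 fold change was called for MKI67 (-2.69 under Sal, -2.27 under S + D), CDC20 (-1.89 under Sal), UBE2C (-1.86 under Sal), RRM2 (-2.92 and -2.62), DDIT4 (-1.84 under S + D), CASP14 (-1.89 and -1.73), DUSP6 (-2.82 and -3.26) and CXCL10 (-2.98 and -3.99, at a level near 1 CPM). All of these differences were downward, and the comparisons share the 8 control libraries.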

How the results depend on the processing

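Past both cutoffs, 57 genes were called. The replicate block gave 96, a term for the unnumbered libraries 94, the numbered libraries alone 163 and a fold cutoff of 1.5 on the linear scale 573, and leaving out 1 library 29 (without 72 h replicate 2) to 111 (without the unnumbered 24 h library). By the adjusted p alone, 1026 genes were called. The block gave 5063, the term 4254, the numbered libraries 3860, DESeq2 2266 and the fit of all 32 libraries 475, and leaving out 1 library 283 (without 72 h replicate 2) to 1683 (without the unnumbered 72 h library). The split of higher and lower calls was 49 and 8 in the 8-library fit and 127 and 36 with the numbered libraries. Genes whose change differed between Das and the control numbered 16, and 62 with the block, 65 with the term, 111 with the numbered libraries, 43 by DESeq2, 10 with the 16 libraries of both arms and 8 to 21 with a library left out. For Sal they ranged from 1275 to 1388 and for S + D from 859 to 1009 with a library left out. The cause of these shifts was not tested.

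Of 133 named genes called, 0 changed direction under any alternative run. The fit of all 32 libraries ended 75 of these calls, no filter on low counts 6, RLE factors 3, and DESeq2 and the replicate block 0, while the block added 25. With 1 library left out, 428 of 1392 values of single genes lost their call and 18 changed direction. The 1392 values cover all 174 named genes tested. Only the 133 called genes could lose a call, so the share of calls lost was larger than 428 of 1392. Genes that changed direction had not been called. With the numbered libraries alone the log2 fold changes were 0.22 for CCN2, 0.13 for FASN and 0.013 for KRT18. With a library left out they ranged from -0.68 to 0.23 for CCN2, -0.135 to 0.006 for E2F2, -0.08 to 0 for CDKN1B, -0.47 to 0.36 for ISG15, -0.17 to 0.10 for FASN, -0.069 to 0.075 for KRT18 and -0.012 to 0.43 for EGR1. Depth limits genes at or below about 1 CPM, such as CXCL10, PIGR, PIP, FGA and FGB.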
